A study of Mus musculus with 4 samples.

Results

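The heat shock and unfolded protein response genes were followed in interscapular brown adipose tissue (iBAT) and epididymal white adipose tissue (eWAT) of WT and ASK1-deficient mice. They were 37 genes chosen by name: cytosolic and mitochondrial heat shock proteins, the heat shock factor Hsf1, the folding machinery of the endoplasmic reticulum (ER), its stress sensors, and the transcription factor Atf4 with its target genes. On the array, 49 probes were named for 36 of these 37 genes, out of 55681 probes in all and 22065 genes matched to RefSeq. Hspa1b had no probe named for it.

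RNA was taken from male C57BL/6J mice aged 10 weeks under normal conditions, and ASK1, the kinase encoded by Map3k5, was deleted in the whole body of the ASK1-deficient mice. WT and ASK1-deficient mice were bred separately. Each of the 4 conditions (WT iBAT, ASK1KO iBAT, WT eWAT and ASK1KO eWAT) was 1 array, hybridised with RNA pooled from 3 mice. The spread between mice was therefore not measured, and the genotype ratio within a tissue is given as a description without a test. These are whole tissues, in which fewer cells of a type and less RNA per cell cannot be told apart.

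Cells respond to unfolded protein in each compartment with a separate programme. In the cytosol, Hsf1 is released from its chaperones, binds heat shock elements and raises HSP70, HSP90, their J-domain partners and small heat shock proteins. In the ER, the sensors Ern1 (IRE1), Eif2ak3 (PERK) and Atf6 raise ER chaperones and degradation factors through Xbp1, cleaved Atf6 and Atf4. ASK1 is itself a stress-activated kinase, known to act downstream of IRE1 in ER stress. Brown adipocytes are dense in mitochondria, whose own chaperones fold the imported proteins.

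A motif of the heat shock, ER stress or Atf4 response was found in the promoter windows of 21 of the 31 genes that had a window. Genes of the 37 without a window could not be searched. Examples of each motif are shown so that the expression values below can be read against them. Sequences are those of RefSeq on GRCm38.p6, up to 250 bases upstream of the annotated transcription start, 5′ to 3′ on the strand of the gene, with motif matches in capitals. Hspa1a, Hspb1 and Hspe1 show heat shock elements (GAANNTTC, called A, or TTCNNGAA, called B), Hspa5 and Hsp90b1 show the ER stress element (CCAAT and CCACG, 9 bases apart), and Chac1 shows the Atf4 element (TGATGNAA). The Hspe1 stretch was limited to 30 bases, which hold its matches and lie also in the promoter window of the neighbouring Hspd1 gene.
Hspa1a, chr17:34972157-34972406, minus strand: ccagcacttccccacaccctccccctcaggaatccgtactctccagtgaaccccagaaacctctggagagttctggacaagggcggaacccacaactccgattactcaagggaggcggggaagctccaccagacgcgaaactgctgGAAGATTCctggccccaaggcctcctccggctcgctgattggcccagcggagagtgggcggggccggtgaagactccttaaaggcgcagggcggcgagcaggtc
Hspb1, chr5:135887669-135887918, plus strand: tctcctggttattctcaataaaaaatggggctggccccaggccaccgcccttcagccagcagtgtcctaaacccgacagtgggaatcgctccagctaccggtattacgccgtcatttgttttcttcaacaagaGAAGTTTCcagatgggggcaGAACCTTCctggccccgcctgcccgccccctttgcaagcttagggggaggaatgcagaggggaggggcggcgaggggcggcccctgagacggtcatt
Hspe1, chr1:55088053-55088082, plus strand: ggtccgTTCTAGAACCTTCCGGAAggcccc
Hspa5, chr2:34771840-34772089, plus strand: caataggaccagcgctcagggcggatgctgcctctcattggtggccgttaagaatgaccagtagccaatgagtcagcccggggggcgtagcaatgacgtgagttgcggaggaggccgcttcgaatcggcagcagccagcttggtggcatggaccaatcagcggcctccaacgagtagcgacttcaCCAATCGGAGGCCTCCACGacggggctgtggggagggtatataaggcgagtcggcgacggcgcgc
Hsp90b1, chr10:86705445-86705694, minus strand: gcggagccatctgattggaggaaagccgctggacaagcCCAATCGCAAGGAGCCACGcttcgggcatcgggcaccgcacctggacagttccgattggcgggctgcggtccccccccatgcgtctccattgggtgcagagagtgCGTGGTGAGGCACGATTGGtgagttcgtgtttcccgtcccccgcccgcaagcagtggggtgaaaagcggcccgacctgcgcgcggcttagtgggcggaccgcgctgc
Chac1, chr2:119350992-119351241, plus strand: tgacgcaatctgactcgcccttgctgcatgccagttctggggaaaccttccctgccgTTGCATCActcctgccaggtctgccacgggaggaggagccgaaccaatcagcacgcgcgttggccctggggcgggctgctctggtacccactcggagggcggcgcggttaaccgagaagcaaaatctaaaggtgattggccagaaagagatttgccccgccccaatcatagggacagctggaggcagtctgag
In the 30 bases of Hspe1, 3 heat shock elements overlap in 1 unbroken run. The promoter windows of Hspe1 and Hspd1, which are transcribed away from each other, share 285 of 300 bases. The windows of Hspa1a and its paralog Hspa1b were identical at 296 of 300 bases.

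A promoter window (250 bases before and 50 after a start) was present for 31 of the 37 genes, in 37 windows, out of 32851 windows of all genes. Both strands were searched. A heat shock element of either form was found in 13 of the 37 windows, belonging to 12 genes, and in 15.1% of all windows. Of these 12 genes, 10 encode heat shock proteins or their cochaperones and the others are Asns and Eif2ak3. The ER stress element was found in 6 genes (Calr, Canx, Dnajc3, Hsp90b1, Hspa5 and Syvn1), all of the ER, and in 0.119% of all windows. The Atf4 element was found in Asns, Chac1, Herpud1 and Trib3 and in 3.97% of all windows. In Asns the Atf4 element and heat shock element A overlap. These matches are descriptions, since the genes were chosen by pathway and a match does not show that a factor is bound.

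**Figure D1:**
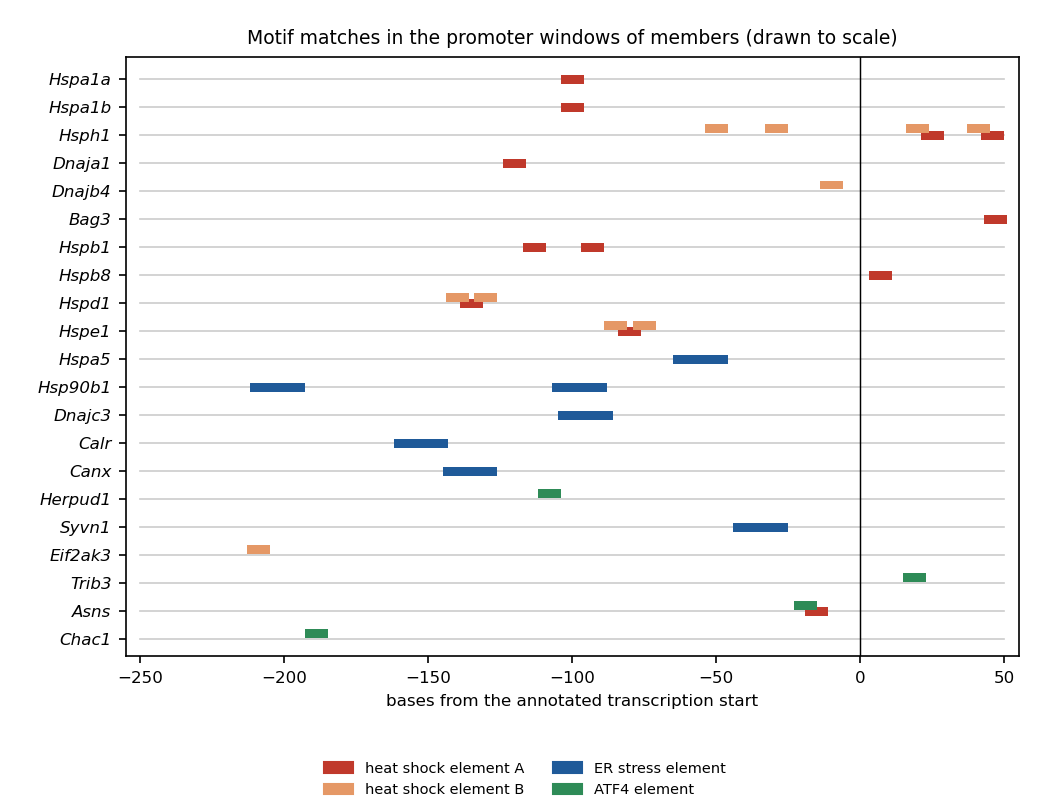
Motif matches in the promoter windows of the 21 member genes that hold at least 1, plotted as bases from the annotated transcription start (0). Coloured boxes are matches drawn to scale on the window from 250 bases before to 50 bases after the start. Heat shock elements lie in the upper rows of cytosolic and mitochondrial genes and in those of Eif2ak3 and Asns, at -104 to -97 in Hspa1a, and ER stress elements in the rows of ER genes, at -65 to -47 in Hspa5. Hsph1 has a pair of annotated starts, and its matches are drawn from each of them, so that its boxes repeat.

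The targeted gene and the tissue markers were examined first. The Map3k5 probe that fell with genotype had a log2 ratio (ASK1-deficient minus WT) of -2.0 in iBAT and -1.8 in eWAT, while the other Map3k5 probe had -0.06 and -0.51. Ucp1, the uncoupling protein of brown adipocytes, was higher in WT iBAT than in WT eWAT by 6.62 on the log2 scale, and leptin (Lep), made by white adipocytes, was lower by 4.56 (log2 difference -4.56). No marker of the epididymis was well above background on any array (0 of 6 genes). The 75th percentile of the processed signal was 356 and 371 on the iBAT arrays and 673 and 634 on the eWAT arrays, and values are given below as normalized signal, the signal of a probe divided by that percentile of its array. All 36 measured members had a probe well above background on all 4 arrays (47 of the 49 probes), and 0 spots were saturated. Spots of the same probe gave a median SD of the log2 ratio between genotypes of 0.087 in iBAT (276 probes) and 0.060 in eWAT (292 probes), an error of the array that leaves the mice out.

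In iBAT 12 of the 13 measured heat shock members of the cytosol and nucleus had a lower signal in ASK1-deficient mice, with a median log2 ratio of -0.29 (the sign of Hspa8, Hsp90ab1, Hspb1 and Hsf1 turned under another scaling), and the Hsp70 cochaperone Dnajb1 was the lowest of all 36 members. Of the 36 members, 26 had a log2 ratio below 0 (59.6% of all 14368 genes did), with the sign of 6 turning under another scaling of the arrays. The median over the members was -0.18, beside -0.07 over all genes. Scaling moved the median of all genes between -0.15 and 0.04, so lists are also given relative to it. Over the scalings, the cytosolic and nuclear members lay at differences of -0.23 to -0.20 from that median, the mitochondrial chaperones at differences of -0.33 to -0.20, and the 15 ER members at differences of -0.073 to -0.004. At a threshold of 2-fold, 1 member was lower and 0 were higher, beside 1.02% lower and 0.835% higher over all genes. At 1.5-fold, 5 members were lower and 0 higher, beside 4.27% lower and 4.51% higher. Over the other settings 2 to 5 members were lower at 1.5-fold, with Dnajb1 and Hspa1a alone left without scaling, after quantile normalization and with the percentile taken over commonly detected probes. These 5 members (Dnajb1, Hspa1a, Dnajb9, Hspe1 and Hspb8) also lay below the 5th percentile of all genes, at -0.55, and 0 members lay above the 95th percentile, at 0.56.

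Dnajb1 is the J-domain protein that hands clients to HSP70, and its probe lies at chr8:86135660-86135719 on mm9. Its normalized signal was 65.7 (WT) and 31.0 (ASK1KO) in iBAT, against 22.6 (WT) and 23.5 (ASK1KO) in eWAT. As scaled, the ASK1-deficient iBAT array thus stood between WT iBAT and the eWAT arrays, with a ratio to WT of 0.472 (log2 ratio -1.08). Without scaling that order did not hold, since the processed signal was 11500 in ASK1KO iBAT, below WT eWAT (15230) and ASK1KO eWAT (14920). The log2 ratio in iBAT ran from -1.17 to -0.90 over the scalings tried, so that it passed 2-fold under some of them and not under others.

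Hspa1a, the stress-inducible HSP70, was measured by 1 probe at chr17:35107117-35107176 on mm9. It had a normalized signal of 9.83 (WT) and 5.60 (ASK1KO) in iBAT, against 0.580 (WT) and 0.602 (ASK1KO) in eWAT. It was lower in ASK1-deficient than in WT iBAT, at a ratio of 0.569, and lower in eWAT of either genotype than in iBAT of either genotype. Transcripts of the near-identical paralog Hspa1b may have bound to the same probe. Among the other members of the HSP70 system, Bag3, a nucleotide exchange factor, had a log2 ratio of -0.49 in iBAT. Hsph1 (HSP110), another exchange factor, had -0.36, and the J-domain proteins Dnajb4 and Dnaja1 had -0.34 and -0.29. The constitutive HSP70 Hspa8 had -0.09, a value whose sign turned under another scaling. In all, 7 of the 8 measured members of the HSP70 system were below 0, with a median of -0.35.

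Hspa4, an HSP110 relative, was the exception in sign, and its probes disagreed. Its normalized signal over the probes was 4.71 (WT) and 5.20 (ASK1KO) in iBAT, against 3.50 (WT) and 4.76 (ASK1KO) in eWAT. Its log2 ratios in iBAT were -0.35, 0.00 and 0.77 over the 3 probes, and in eWAT -0.02, 0.37 and 0.99. The mean of 0.14 in iBAT therefore describes none of the probes. The other members with more than 1 probe used had probes of 1 sign in iBAT, and in total 8 members had more than 1.

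The HSP90 genes Hsp90aa1 and Hsp90ab1 had log2 ratios in iBAT of -0.24 and -0.035, of which the second turned in sign under another scaling. Hspb1, a small heat shock protein, had -0.16, and 0.00 after quantile normalization. Hspb8, the small heat shock protein that works with Bag3 in clearing misfolded protein, had a normalized signal of 7.24 (WT) and 4.81 (ASK1KO) in iBAT, against 17.9 (WT) and 16.9 (ASK1KO) in eWAT. The ratio of ASK1-deficient to WT was 0.665 in iBAT, and both iBAT arrays were below both eWAT arrays. Hsf1, the transcription factor of the response, had 3.76 (WT) and 3.73 (ASK1KO) in iBAT, and 2.68 and 2.69 in eWAT. Its log2 ratio turned in sign in both tissues under another scaling, from -0.10 to 0.088 in iBAT and from -0.084 to 0.028 in eWAT.

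The mitochondrial chaperones were lower in ASK1-deficient iBAT in all 3 members, under every scaling tried. Hspe1 (HSP10), the lid of the Hspd1 (HSP60) folding chamber, had a normalized signal of 63.7 (WT) and 41.6 (ASK1KO) in iBAT, against 14.9 (WT) and 15.2 (ASK1KO) in eWAT. Its ratio in iBAT was 0.653, and its 3 probes, a pair of which overlap at chr1:55148023-55148085 on mm9, gave log2 ratios of -0.71, -0.61 and -0.53. Hspd1 had 193 (WT) and 152 (ASK1KO) in iBAT, against 56.4 (WT) and 57.4 (ASK1KO) in eWAT. Hspa9 (mortalin), the HSP70 that pulls proteins into the matrix, had 99.3 and 75.5 in iBAT and 31.8 and 30.5 in eWAT. In all 3 genes the ASK1-deficient iBAT array lay below WT iBAT and above both eWAT arrays, and the eWAT arrays differed by at most 0.06 on the log2 scale (-0.06 in Hspa9).

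Among the 8 chaperones and folding enzymes of the ER, 6 were below 0 in iBAT and the median was -0.17. The lowest was Dnajb9 (ERdj4), a cochaperone of the ER HSP70, with 1.92 (WT) and 1.25 (ASK1KO) in iBAT, against 0.898 (WT) and 0.886 (ASK1KO) in eWAT. Both of its probes gave a lower value in ASK1-deficient iBAT, at log2 ratios of -0.59 and -0.64. Hspa5 (BiP), the main ER chaperone, had a log2 ratio of -0.29, and the lectin chaperones Calr and Canx had -0.22 and -0.17. Pdia4, a disulphide isomerase, and Hsp90b1 (GRP94) were above 0, at 0.15 and 0.12. Of these 8 genes, 1 passed 1.5-fold, and the 5 that hold an ER stress element ranged from -0.29 (Hspa5) to 0.12 (Hsp90b1).

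The ER-associated degradation genes Syvn1, an E3 ligase, and its partner Sel1l had log2 ratios of -0.36 and -0.10 in iBAT, Sel1l turning in sign under another scaling, and Herpud1 had 0.14. Of the sensors and Xbp1, 3 of 4 were above 0 in iBAT, among them Eif2ak3, which turned in sign under another scaling. Atf6 had a normalized signal of 0.601 (WT) and 0.797 (ASK1KO) in iBAT, against 0.514 (WT) and 0.543 (ASK1KO) in eWAT, a log2 ratio of 0.41 in iBAT, close to that of Chac1 (0.40). Xbp1, which IRE1 splices into an active factor, had 29.9 (WT) and 36.3 (ASK1KO) in iBAT, against 77.9 (WT) and 80.0 (ASK1KO) in eWAT. Both were higher in ASK1-deficient than in WT iBAT and under 1.5-fold. Ern1 and Eif2ak3 had log2 ratios of -0.19 and 0.02.

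Atf4 and its targets did not share a direction. Atf4 had a normalized signal of 21.4 (WT) and 15.8 (ASK1KO) in iBAT, against 12.5 (WT) and 10.2 (ASK1KO) in eWAT, lower in ASK1-deficient mice in both tissues and by both probes. Chac1, a glutathione-degrading enzyme induced by Atf4, had 1.68 (WT) and 2.21 (ASK1KO) in iBAT, against 2.47 (WT) and 3.73 (ASK1KO) in eWAT, higher in ASK1-deficient mice in both tissues. The genotype ratio of Chac1 in eWAT was 1.51 (log2 ratio 0.60), the highest of the 36 members in that tissue. Asns, asparagine synthetase, had -0.48 (iBAT) and 0.02 (eWAT) as log2 ratios, and in eWAT the sign turned under another scaling.

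Ddit3 (CHOP), the transcription factor of ER stress-induced death, had 2.91 (WT) and 3.40 (ASK1KO) in iBAT, against 1.95 (WT) and 1.54 (ASK1KO) in eWAT. Trib3, a pseudokinase induced by CHOP, had 4.70 (WT) and 5.95 (ASK1KO) in iBAT, against 4.76 (WT) and 3.61 (ASK1KO) in eWAT. In ASK1-deficient mice both were higher in the brown and lower in the white tissue, at 1.17 and 1.27 times the WT signal in iBAT and 0.792 and 0.758 times in eWAT. The difference between the tissues was not tested.

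**Figure D2:**
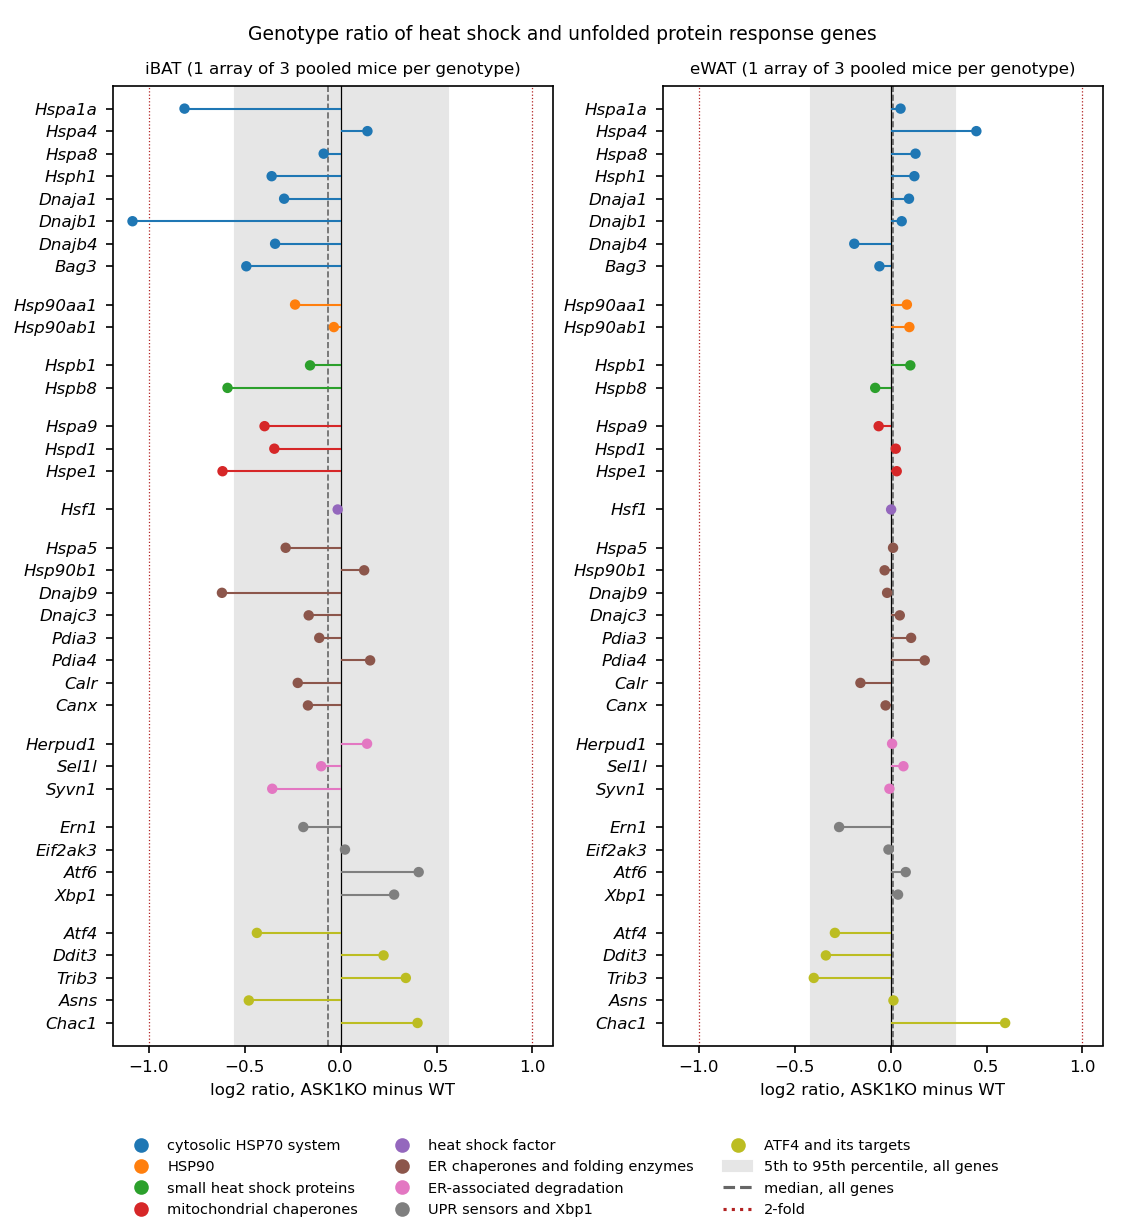
Log2 ratio of ASK1-deficient (ASK1KO) to WT for the 36 measured members in iBAT (left) and eWAT (right), coloured by role, each point from 1 array per genotype. The grey band spans the 5th to 95th percentile of all genes, the dashed line is their median and the dotted lines mark 2-fold. In iBAT 26 points lie left of 0 (the sign of 6 members turned under another scaling), with Dnajb1 at -1.08 beyond the 2-fold line, and in eWAT the points lie between -0.40 and 0.60 (the sign of 17 turned).

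In eWAT most of the same genes stood close to the WT values. The median over the 36 members was 0.021, beside 0.015 over all 15370 genes, and 14 members were below 0 against 45.9% of all genes. At 2-fold 0 members were higher and 0 lower, beside 0.286% and 0.865% of all genes. At 1.5-fold 1 member, Chac1, was higher and 0 were lower, beside 1.37% and 2.67%, and Chac1 fell short of it with normexp background correction (0.505), without scaling (0.51), after cyclic loess (0.568) and with the percentile over commonly detected probes (0.573). The sign of 17 members turned under another scaling, so that values near 0 have no settled direction in this tissue. The highest log2 ratios after Chac1 were those of Hspa4 (0.45), whose probes disagreed, and Pdia4 (0.18). Chac1 and Hspa4 were the 2 members above the 95th percentile of all genes, at 0.338, and 0 members lay below the 5th, at -0.412. The lowest were those of Trib3 (-0.40), Ddit3 (-0.34) and Atf4 (-0.29).

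Other genes moved between the iBAT arrays as well. All 7 immediate early genes listed as signs of recent stimulation were below 0 in ASK1-deficient mice in both tissues, with a median log2 ratio of -0.42 in iBAT and -0.34 in eWAT, and Jun was lowest in iBAT at -1.48. Their summed normalized signal was 40.8 (WT) and 20.1 (ASK1KO) in iBAT, against 24.4 (WT) and 20.7 (ASK1KO) in eWAT, and in iBAT most of that sum was the Jun probe alone, at 28.6 (WT) and 10.25 (ASK1KO). All 8 macrophage markers were above 0 in iBAT, with a median of 0.65 and sums of 16.7 (WT) and 21.5 (ASK1KO). Of 6 lymphocyte and plasma cell markers measured in iBAT, 4 were above 0, with a median of 0.30, the plasma cell gene Jchain at 1.73 and sums over the list of 4.32 (WT) and 3.87 (ASK1KO). In eWAT 5 of 10 were below 0 (Jchain 0.89 and Pou2af1 2.38), with sums of 6.36 (WT) and 7.12 (ASK1KO). Brown adipocyte markers were below 0 in iBAT in 8 of 8 genes, with a median of -0.39, and in eWAT in 7 of 7, with a median of -0.84 and Ucp1 at -4.63. The eWAT arrays also differed in skeletal muscle markers (5 of 6 below 0, median -0.89) and hepatocyte markers (4 of 4 below 0, median -4.15). In iBAT, 2 of 8 hepatocyte markers were well above background in WT and 7 of 8 in ASK1KO. The summed normalized signal of these 8 was 338 (WT iBAT) and 282.5 (ASK1KO iBAT). The part of these markers in the genotype ratios of the heat shock and ER genes was not tested in either tissue.

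When genotype was fitted together with tissue over the 4 arrays, 0 of the 36 members passed an adjusted p of 0.05 for genotype in limma, as did 0.0% of all 14048 genes. At an unadjusted p under 0.05 there were 2 members, Atf4 and Chac1, beside 5.47% of all genes (769). The fitted log2 ratio of Atf4 was -0.36 (95% confidence interval -0.72 to -0.01, limma adjusted p = 0.91). That of Chac1 was 0.50 (0.14 to 0.86, limma adjusted p = 0.786). The fit assumed 1 genotype effect for the 2 tissues, and its 1 residual degree of freedom is the difference between the tissues in that effect and not the spread between mice.

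**Figure D3:**
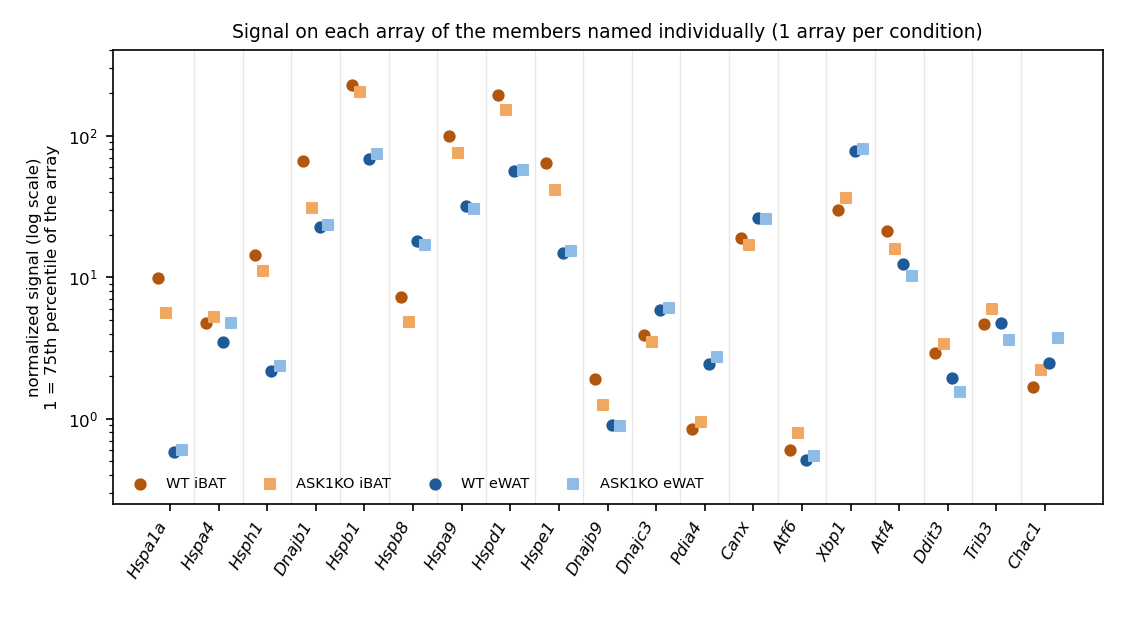
Normalized signal on a log scale of the 19 members described individually, 1 point for each of the 4 arrays (circles WT, squares ASK1KO, brown iBAT, blue eWAT). For Hspa1a the iBAT arrays stand at 9.83 and 5.60 and the eWAT arrays near 0.6, and for Hspb8 and Xbp1 the order of the tissues is the other way round. Levels of different genes are not comparable, since each probe has its own response.

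As fitted, 11 cytosolic and nuclear heat shock members and 3 mitochondrial chaperones were higher in iBAT, while Hspb8, Pdia4 and Xbp1 were lower, and a difference between the compartments was not tested. In the same limma fit 23 of the 36 members passed an adjusted p of 0.05 for tissue, beside 55.4% of all genes, so that the share called was close to that of the array. They were 17 higher in iBAT (30.8% of all genes) and 6 lower (24.6%). The median over the members was 0.37 on the log2 scale (iBAT minus eWAT), beside 0.07 over all genes. Without scaling between the arrays the median of all genes was -0.77 and that of the members -0.475, and 6 of the 17 members called higher in iBAT (Hspa8, Dnaja1, Hsp90aa1, Hsf1, Dnajb9 and Atf4) then had a difference below 0, although each stayed above that median. No called member turned in sign under the other scalings. The split of called members into higher and lower was 17 to 6 as fitted, 15 to 9 after quantile normalization, 14 to 11 after cyclic loess and 6 to 17 without scaling, where the 6 still called higher were Hspa1a, Hsph1, Hspe1, Hspb1, Hspd1 and Hspa9. Without the ASK1KO eWAT array, in a fit with tissue alone, 14 members were called (11 higher and 3 lower).

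Of the 13 cytosolic and nuclear heat shock members measured, 11 were higher in iBAT and 1 (Hspb8) lower, with a median difference of 0.88. Without scaling that median was 0.038, and relative to the median of all genes it ran from 0.517 to 0.811 over the scalings. Hspa1a was 12.6-fold higher (log2 difference 3.65, SE 0.23, limma adjusted p = 7.24e-05). Hsph1 had a normalized signal of 14.3 (WT) and 11.1 (ASK1KO) in iBAT, against 2.16 (WT) and 2.35 (ASK1KO) in eWAT, and was 5.58-fold higher (limma adjusted p = 0.000111). In both genes every iBAT array was above every eWAT array. Hspb1 had 228 (WT) and 204 (ASK1KO) in iBAT, against 68.7 (WT) and 73.8 (ASK1KO) in eWAT, 3.03-fold higher (SE 0.15 on the log2 scale). The HSP90 genes Hsp90ab1 and Hsp90aa1 were 2.13-fold and 1.69-fold higher, and neither was called without scaling, at log2 differences of 0.243 and -0.093.

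All 3 mitochondrial chaperones were higher in iBAT, also without scaling. Hspe1 was 3.42-fold higher (log2 difference 1.77, SE 0.19), Hspd1 3.02-fold (1.59, SE 0.16) and Hspa9 2.78-fold (1.48, SE 0.16), with limma adjusted p of 0.000582, 0.000439 and 0.000547. Since Hspd1 and Hspe1 share a promoter region, they are not independent observations. For each of them the difference was larger in the WT arrays than in the ASK1-deficient arrays, at 1.78 and 1.41 for Hspd1 and 2.10 and 1.45 for Hspe1. This gap between the genotypes is the residual of the fit and was not tested.

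Hspb8 was 2.95-fold lower in iBAT (log2 difference -1.56, SE 0.18, limma adjusted p = 0.000665). Its partner Bag3 was 1.92-fold higher, a call that was lost without scaling (log2 difference 0.096). Among the 15 ER members, 1 was higher in iBAT (Dnajb9, below 0 without scaling) and 4 were lower (24.6% of all genes were lower), with a median difference of -0.29. Pdia4 had a normalized signal of 0.847 (WT) and 0.943 (ASK1KO) in iBAT, against 2.43 (WT) and 2.75 (ASK1KO) in eWAT, 2.89-fold lower in iBAT. Xbp1 was 2.40-fold lower (log2 difference -1.26, SE 0.15). Dnajc3 (p58IPK), with 3.93 and 3.50 in iBAT and 5.83 and 6.03 in eWAT, was 1.60-fold lower, and Canx, with 19.0 and 16.9 in iBAT and 26.4 and 25.9 in eWAT, was 1.46-fold lower. Hspa5, with 63.5 (WT) and 52.1 (ASK1KO) in iBAT, against 53.0 (WT) and 53.4 (ASK1KO) in eWAT, was not called, and its 95% confidence interval ran from -0.27 to 0.49.

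The 3 degradation genes were not called, and their differences ran from -0.33 (Sel1l) to 0.28 (Herpud1), the latter below 0 without scaling. Of the 5 genes of the Atf4 group, Ddit3 was 1.81-fold and Atf4 1.63-fold higher in iBAT. Without scaling neither held, at differences of 0.013 (Ddit3, limma adjusted p = 0.958) and -0.142 (Atf4). Chac1 was 1.58-fold lower in iBAT (limma adjusted p = 0.011). Trib3 and Asns were not called, at 0.35 and 0.12. The iBAT samples also carried skeletal muscle transcripts, with a summed normalized signal of 801.7 and 801.5 on the iBAT arrays and 9.15 and 4.63 on the eWAT arrays over 8 markers. Macrophage markers were lower in iBAT in 7 of 8 genes, and lymphocyte and plasma cell markers in 5 of 6. The part of muscle, macrophage and lymphoid RNA in the tissue differences was not tested.

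**Figure D4:**
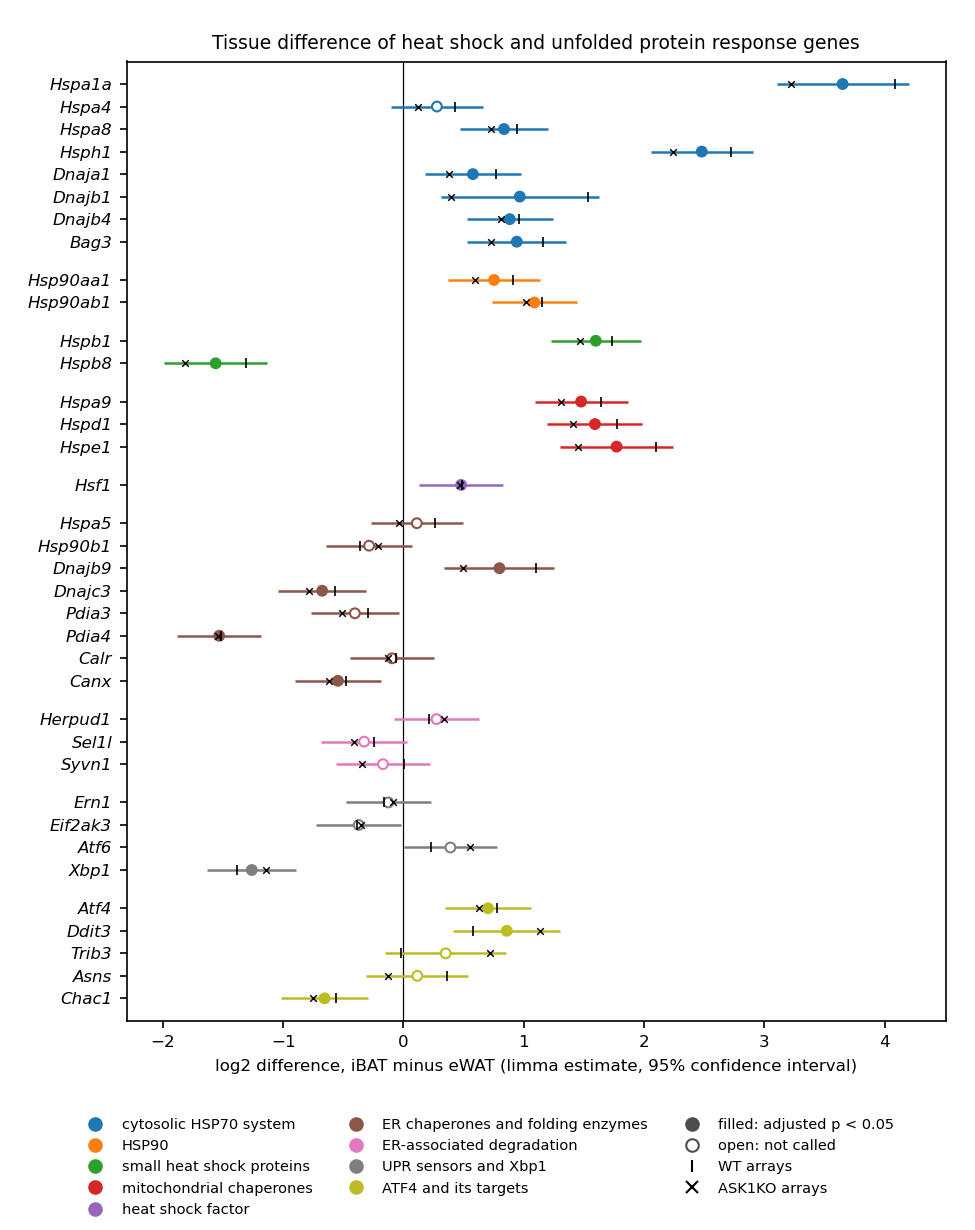
Log2 difference between iBAT and eWAT for the 36 measured members, with the limma estimate as a circle (filled where the adjusted p was under 0.05) and its 95% confidence interval as a line, and the difference within the WT arrays and within the ASK1KO arrays as a bar and a cross. Cytosolic heat shock genes other than Hspb8 and the mitochondrial chaperones lie right of 0, Hspa1a at 3.65 farthest (6 of the 17 genes called right of 0, Hsf1 among them, fell below 0 without scaling), and Hspb8, Pdia4 and Xbp1 lie at -1.26 or below.

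Genes of the same pathways that were not members were counted from 4 lists. Of 39 other cytosolic heat shock proteins and cochaperones, 31 had a log2 ratio below 0 in ASK1-deficient iBAT (59.6% over all genes), with a median of -0.12, and 0 of 39 passed 2-fold. Over the scalings that median ran from -0.21 to -0.021, and relative to all genes from -0.07 to -0.016. In eWAT 7 of 38 were below 0 (45.9% over all genes), with a median of 0.08 that turned in sign under another scaling. Between tissues 14 of 38 were higher in iBAT and 2 lower (30.8% and 24.6% over all genes), and the median difference of 0.30 fell to -0.54 without scaling. Of 35 measured genes of ER folding and degradation, 26 were below 0 in iBAT (median -0.12) and 9 of 35 in eWAT (median 0.06, turning in sign under another scaling), and between tissues 3 were higher in iBAT and 10 lower. The iBAT median of this ER list ran from -0.208 to -0.019 over the scalings.

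The mitochondrial list followed the mitochondrial chaperones. Of 16 genes of mitochondrial protein quality control, 15 were below 0 in ASK1-deficient iBAT with a median of -0.295 (-0.07 over all genes), and 7 of 16 were below 0 in eWAT. Relative to all genes its median in iBAT lay at differences of -0.23 to -0.14 over the scalings. Between tissues 15 of 16 were higher in iBAT and 0 lower, with a median difference of 1.43. Of 25 measured genes of the integrated stress response, 17 were below 0 in iBAT (median -0.11), in eWAT 14 of 27 were (median -0.01, turning in sign under another scaling), and between tissues 8 were higher in iBAT and 9 lower (over all genes 59.6% and 45.9% were below 0, and 30.8% and 24.6% were called). The iBAT median of this stress response list ran from -0.199 to -0.011 over the scalings.

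Of the 115 genes of these lists measured in iBAT, 2 were lower by 2-fold in ASK1-deficient mice (1.74%, beside 1.02% of all genes) and 0 higher (0.835% of all genes). In eWAT 0 of 116 passed, beside 0.865% of all genes lower and 0.286% higher. Both belong to the integrated stress response. Atf3, a transcription factor induced by Atf4 and by many other stimuli, had a normalized signal of 2.64 (WT) and 1.12 (ASK1KO) in iBAT, against 1.24 (WT) and 0.806 (ASK1KO) in eWAT. Ddit4 (REDD1), an inhibitor of mTORC1 signalling, had 30.8 (WT) and 12.8 (ASK1KO) in iBAT, against 47.7 (WT) and 42.0 (ASK1KO) in eWAT. Their log2 ratios in iBAT were -1.25 and -1.27, and in eWAT -0.62 and -0.18.

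**Figure D5:**
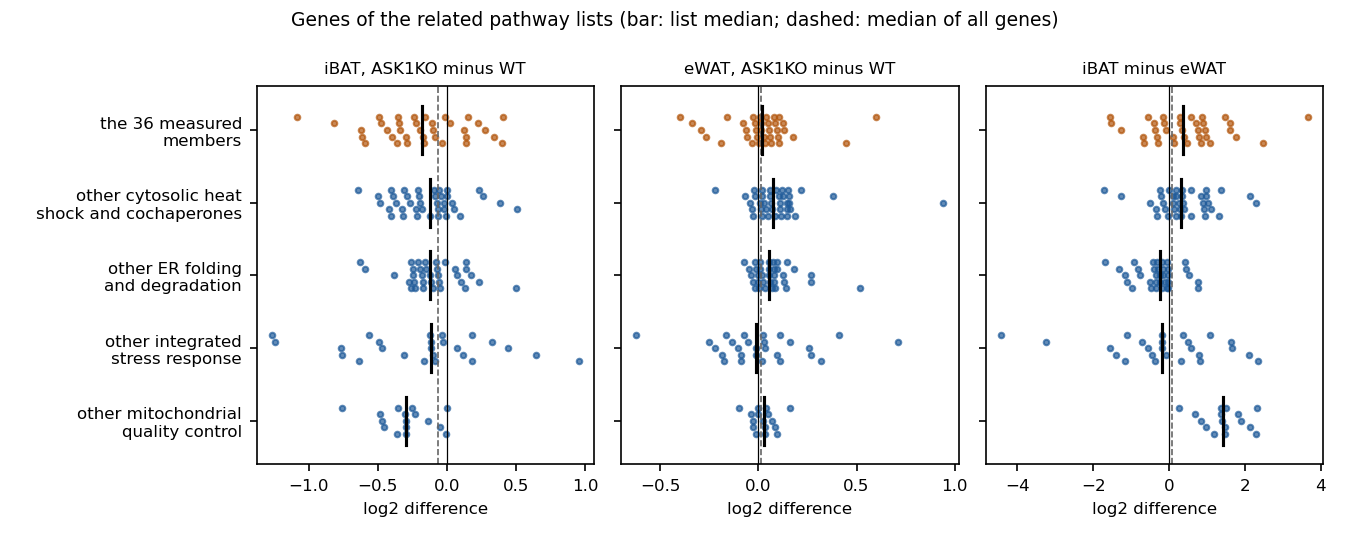
Log2 differences of single genes (points) in the 36 measured members and the 4 lists of other pathway genes, for ASK1KO minus WT in iBAT, ASK1KO minus WT in eWAT, and iBAT minus eWAT. Black bars are list medians and dashed lines the medians of all genes. In the first panel 15 of the 16 genes of the mitochondrial list lie left of 0, and the list median is -0.295. In the last panel the mitochondrial list lies right of 0, with a median of 1.43.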

How the data were processed

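RNA of iBAT and eWAT was measured on 4 Agilent 1-colour arrays (design 028005), 1 for each genotype and tissue, and arrays were assigned from their labels. Per the file headers, the authors deposited Feature Extraction 10.7.3.1 output, whose processed signal (an intensity) had its spatial trend removed and surrogates put in for dim spots, with no scaling between arrays. The deposited series table holds the same signal divided by 1 constant per array, its median. Probe positions are those of the files (mm9), and promoter sequences and gene names those of the RefSeq table of GRCm38.p6.

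Control spots and outliers were left out, spots of a probe averaged, and log2 signals scaled to the 75th percentile of each array. A gene was the mean over its probes well above background on the arrays compared. Of 34844 gene names, 22077 matched RefSeq, and a synonym was used only where no probe carried the symbol. Genotype within a tissue (1 array each) was described at 2-fold and 1.5-fold without a test. Genotype and tissue were fitted together with limma 3.58.1 (R 4.3.3), with Benjamini-Hochberg adjustment over 14048 genes and 1 residual degree of freedom. On simulated data made from these arrays, the genotype fit recovered 200 of 200 genes changed by 2 on the log2 scale and called 6 unchanged genes. The simulated noise was that between spots of a probe, and each change was the same in both tissues. The simulated data held no spread between mice, so this recovery does not show what the fit can find in these mice. The number of arrays limits the precision.

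The members and gene lists were chosen with earlier results of these data known. Values are printed for each array for members 1.5-fold apart in a tissue, for the 3 highest and 3 lowest ratios of each tissue and for the 6 members with the largest tissue difference in each direction, and also for Hsf1 and Hspa5, which this rule did not select. Non-members of the pathway lists are named at 2-fold. Background correction, scaling, the filter on dim probes, the choice of probes, the threshold, the model terms and the arrays included were varied. Probe sequences and exons were not used here.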

Additional observations from a re-analysis of the deposited data

Results flagged for a closer look

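Of the members, 3 had log2 ratios of opposite sign in the tissues, each larger than 2 technical SDs between spots of a probe, a spread that leaves out the mice, and the difference between the tissues was not tested. Hsph1 had -0.359 in iBAT and 0.124 in eWAT, where it barely passed that limit and fell below it with normexp (0.094), the brightest probe (0.05) and no scaling (0.036), among others. Ddit3 had 0.224 in iBAT and -0.337 in eWAT, and in iBAT it fell below that limit with median centring (0.147) and the series table (0.139). Trib3 had 0.34 in iBAT and -0.40 in eWAT. All 3 kept these signs under every scaling tried.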

How the results depend on the processing

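Each condition had 1 pool of 3 mice, so that no value carries an error between mice. Depth does not apply to arrays, and all members were well above background on all 4. The number of members 2-fold apart in iBAT, 1 as reported, was 0 with the 75th percentile taken over the commonly detected probes, 0 after quantile normalization and 0 after cyclic loess, and 5 at 1.5-fold. In eWAT it was 0 under every setting tried except 1 at 1.5-fold. The median over members in iBAT, -0.182 as reported, was -0.079 with that percentile (all genes 0.037) and -0.09 after quantile normalization (all genes -0.025). In eWAT, 0.021 as reported, it was -0.067 without scaling (all genes -0.072). The number of members called for tissue, 23 as reported, ran from 18 to 28 over the other settings, and from 14 to 27 when 1 array was left out, in a fit with tissue alone, with 14 without the ASK1KO eWAT array. The lone array left in a group is then assumed to vary like the others. Among the 19 members described array by array under the stated rule, without scaling, the tissue difference of Atf4 turned to -0.142 and that of Dnajb9 to -0.048, while Ddit3 (0.013, limma adjusted p = 0.958) and Dnajb1 (0.121, limma adjusted p = 0.696) were no longer called. Dnajb1 also lost its tissue call after cyclic loess (limma adjusted p = 0.0709) and, with no filter on dim probes, so did Dnajb1 (0.0685), Canx (0.0805) and Chac1 (0.0519). Calls were gained by Atf6 after normexp (0.399, limma adjusted p = 0.025) and, in the opposite direction to the value as reported, by Hspa4 without scaling (-0.568, limma adjusted p = 0.0143). By limma, 0 members were called for genotype under every setting, also with 1 array left out, although over all genes 139 were called after median centring, 128 with the series table and 24 after normexp, against 0 as reported. Genes 2-fold apart over the whole array numbered 266 in iBAT and 177 in eWAT as reported, 106 and 60 after normexp, and 1132 and 1036 with no filter on dim probes. In eWAT they were 114 when a probe had to be well above background on all 4 arrays. The cause of these changes was not tested. No paired analysis was possible because each condition has 1 array and the labels give no number that pairs mice across groups.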
